A study of Rattus norvegicus with 16 samples.

Results

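Myosin light chains and the sarcomere proteins that exist in slow-fibre and fast-fibre forms were examined in rat soleus, a predominantly slow-twitch postural muscle. The genes considered were Myl1, Myl2, Myl3, Mylpf, Myl6b, Mybpc1, Mybpc2, Actn2, Actn3 and Mylk2, and a gene was represented by every probe set that carried its symbol and no other. That gave 12 probe sets for 9 of the 10 genes, out of 14217 genes with such a probe set and 31042 probe sets tested. Mylpf was found under its current symbol Myl11 by gene identifier, and Myl6b has no value here because the single probe set that names it also names Myl6 and Myl6l. The groups were HCR trained, HCR sedentary, LCR trained and LCR sedentary, with 4 female rats each and 1 array per rat. HCR and LCR are lines descended from N:NIH stock by artificial selection for high or low treadmill running capacity, taken at generation 16. A selection test at a younger age is recorded for every rat, sedentary ones included, so sedentary rats are not taken as never run. The trained rats ran uphill intervals on a treadmill (incline 25 degrees, 1.5 hours per session, 5 days per week, 8 weeks), and the sedentary rats of the same line and age did not. Trained rats also had weekly tests of maximal oxygen uptake, which sedentary rats did not, so running and testing cannot be told apart. All rats were killed at about 7 months, the trained ones 48 hours after the last session, and 20 mg of soleus per rat was used. The tissue held fibres of several types together with other cells, so fewer fibres of a type and less RNA per fibre cannot be told apart.

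In striated muscle each myosin heavy chain carries an essential and a regulatory light chain on its neck, and slow and fast fibres use different genes for them. Myl3 and Myl2 encode the slow essential and regulatory chains, which the heart ventricle also uses, and Myl1 and Mylpf encode the fast ones. Myosin binding protein C sits on the thick filament and tunes cross-bridges, with a slow form (Mybpc1) and a fast form (Mybpc2). Alpha-actinin anchors thin filaments in the Z-disc, with Actn2 in all fibres and Actn3 in fast fibres. Mylk2 is the skeletal muscle kinase that phosphorylates the regulatory light chain when calcium and calmodulin rise.

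The promoters of 4 members are shown because their transcripts parted most clearly on the array described next, where the fast genes Actn3 and Mybpc2 read high, the slow gene Myl3 read low and the slow gene Mybpc1 did neither. Each window runs from 250 bases before to 50 bases after a start site of the gene in the RefSeq table of assembly GRCr8. It is written 5′ to 3′ on the strand of the gene. For Myl3 and Mybpc1 that site is not the first base of the gene span. The Mybpc1 window lies wholly inside its span, chr7:24817770-24903681. Capitals mark the E-box letters CANNTG, a pattern that matches the same bases on either strand.
Actn3, chr1:211604352-211604651, minus strand: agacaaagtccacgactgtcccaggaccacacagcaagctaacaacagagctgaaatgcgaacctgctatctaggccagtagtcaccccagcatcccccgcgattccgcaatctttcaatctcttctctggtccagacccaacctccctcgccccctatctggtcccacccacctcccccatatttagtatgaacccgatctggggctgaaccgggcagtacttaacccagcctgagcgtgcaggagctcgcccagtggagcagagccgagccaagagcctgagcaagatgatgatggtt
Mybpc2, chr1:104154052-104154351, minus strand: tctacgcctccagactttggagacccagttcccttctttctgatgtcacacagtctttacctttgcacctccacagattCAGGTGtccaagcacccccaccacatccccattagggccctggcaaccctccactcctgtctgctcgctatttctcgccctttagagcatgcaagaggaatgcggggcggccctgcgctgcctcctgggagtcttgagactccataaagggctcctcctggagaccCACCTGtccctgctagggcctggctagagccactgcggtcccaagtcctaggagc
Myl3, chr8:119616844-119617143, plus strand: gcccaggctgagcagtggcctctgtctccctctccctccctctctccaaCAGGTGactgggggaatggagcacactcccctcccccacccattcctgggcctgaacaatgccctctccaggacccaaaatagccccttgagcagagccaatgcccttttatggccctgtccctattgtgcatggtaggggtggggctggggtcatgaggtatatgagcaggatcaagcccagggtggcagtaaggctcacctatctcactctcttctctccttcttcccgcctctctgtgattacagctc
Mybpc1, chr7:24903324-24903623, minus strand: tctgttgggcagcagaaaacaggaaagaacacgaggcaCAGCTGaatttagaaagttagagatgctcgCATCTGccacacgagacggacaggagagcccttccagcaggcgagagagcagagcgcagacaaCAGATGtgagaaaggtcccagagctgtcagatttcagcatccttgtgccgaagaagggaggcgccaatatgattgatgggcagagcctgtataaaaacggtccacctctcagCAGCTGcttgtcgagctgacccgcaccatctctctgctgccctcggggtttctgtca
The Mybpc1 window held 4 E-boxes, that of Mybpc2 held 2, that of Myl3 held 1 and that of Actn3 held 0. Of 33469 windows of this length in the table, 72.1% held at least 1. A MEF2 site was in none of the 4 windows shown, against 3.29% of all windows, and a CArG box was in the Myl3 window alone among those shown, against 1.64% of all windows. The table held windows for 7 of the 9 measured genes, and for Myl1 it held 2 start sites.

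The tissue label was checked against 8 skeletal fibre markers, all measured, whose mean level was 13.1 to 13.9 in HCR trained, 13.9 to 14.0 in HCR sedentary, 13.9 to 14.0 in LCR trained and 13.9 to 14.0 in LCR sedentary rats on the log2 scale. The mean over 6 cardiac muscle markers was between 6.08 and 6.72 on every array. Values are the authors' deposited log2 expression values, so 1 unit is a 2-fold difference, and they compare arrays at a given probe set but not probe sets with each other. The brightest probe sets of Myl1, Mylpf, Myl2, Myl3, Mybpc1 and Actn2 averaged 13.6 to 14.1, close to the highest value on each array, 14.5 to 14.6, so how far such a signal could still read higher was limited. The array HCR trained 3 stood apart from its group in these genes, and the array HCR sedentary 2 carried more matrix and leukocyte marker signal than the rest. Where leaving out either array turned a difference or moved it by a large part, the value without it is given as well.

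On HCR trained 3, fast members read high and slow light chains read low. Actn3 read 14.27 there, against 10.76, 11.10 and 9.53 on HCR trained 1, 2 and 4, which is 3.80 log2 units above their mean. Mybpc2 read 13.95 there, against 9.49, 10.27 and 8.88, and its dimmer second probe set read 10.08, against 5.15, 5.29 and 5.13. The differences of these 3 probe sets from the other 3 arrays of the group ranked 12, 5 and 3 from the top among all 31042. Mylk2 read 11.44, which is 1.30 above the mean of the other 3 arrays, and its second probe set was 1.17 above. Mylpf, the fast regulatory light chain, read 14.34 against 13.86, 13.46 and 13.07. Myl1, the fast essential light chain, differed by 0.081, at a level near the top of the scale.

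In the opposite direction, Myl3 read 11.88 on HCR trained 3 against 14.18, 14.15 and 14.20 on the other HCR trained arrays, a signal 4.91-fold lower. Myl2 read 12.27 against 14.18, 14.26 and 14.25, a signal 3.89-fold lower, and its second probe set was 5.01-fold lower. At the brightest probe sets both slow light chains thus lay outside a range that the other 15 arrays kept narrow. It was 13.96 to 14.25 for Myl3 and 14.02 to 14.29 for Myl2, near the top of the scale. The second Myl2 probe set, at a lower level, read 7.00 on HCR trained 3 and spread over 8.77 to 10.11 on the other 15 arrays. Actn2, the alpha-actinin of all fibres, read 13.18 against 13.99, 13.96 and 14.00. Mybpc1, the slow myosin binding protein C, read 13.84 on this array and 13.82 to 13.91 on the other 3, a difference of -0.02. So of the 3 slow members measured, both light chains were low on this array and the binding protein was not.

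In all, 5 of 12 member probe sets were over 1 log2 unit higher on HCR trained 3 than the mean of the other 3 arrays, where 1.57% of all probe sets were, and 3 of 12 were over 1 unit lower, where 2.27% were. This describes 1 rat and has no replicate. In 6 of 9 marker lists this array had the lowest mean of all arrays. Relative to each gene's mean over the 16 arrays it lay at -0.78 for skeletal muscle fibre markers, where the others lay between -0.10 and 0.13, and that list includes the slow genes Myh7 and Tnnt1. It lay at -0.35 for cardiac muscle, -0.37 for smooth muscle and pericyte, -0.59 for macrophage and leukocyte, -0.99 for adipocyte and -0.59 for endothelial markers. The part of these in the member values was not tested.

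**Figure D1:**
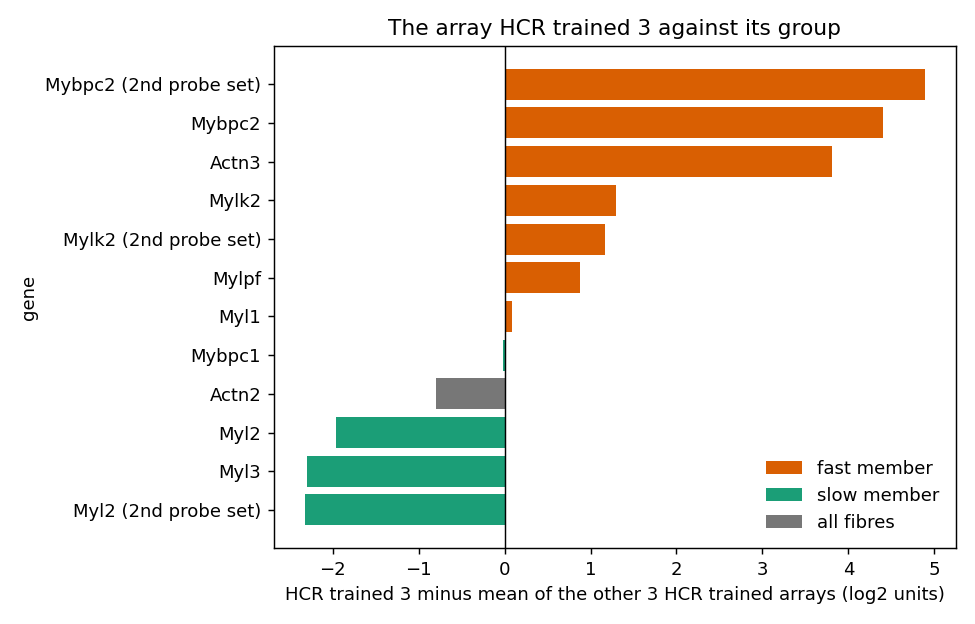
Each bar is a probe set, with the difference between the array HCR trained 3 and the mean of the other 3 HCR trained arrays on the x axis in log2 units. Mybpc2 and Actn3 lie at 3.80 to 4.89, Myl2 and Myl3 at -2.33 to -1.96, and Myl1 and Mybpc1 at 0.081 and -0.02.

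Training in the HCR line was next compared, to ask how the muscle of high-capacity rats responds. Actn3 was the member with the largest difference. It read 10.76, 11.10, 14.27 and 9.53 in HCR trained rats 1 to 4, against 6.31, 9.02, 6.68 and 6.22 in HCR sedentary rats 1 to 4. Every trained value lay above every sedentary one, and this holds without HCR trained 3. The means were 11.4 ± 2.02 in trained and 7.06 ± 1.32 in sedentary rats (SD, n = 4 each), a difference of 4.36 log2 units (SE 0.92, 95% interval 2.40 to 6.33). It missed the threshold of 0.05 in limma's moderated test over all probe sets (adjusted p = 0.0632). The difference was 3.41 without HCR trained 3 (adjusted p = 0.0579) and 5.01 without HCR sedentary 2, the highest sedentary array (adjusted p = 0.107). Without both arrays it was 4.06 and passed (adjusted p = 0.0426).

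Mybpc2, the fast binding protein, followed in size. It read 9.49, 10.27, 13.95 and 8.88 in HCR trained rats, against 5.91, 8.93, 8.30 and 6.78 in HCR sedentary rats. The groups overlapped only between HCR trained 4 and HCR sedentary 2. The difference was 3.17 (SE 1.12, adjusted p = 0.171), and 2.06 without HCR trained 3 (adjusted p = 0.234). The second Mybpc2 probe set disagreed: without HCR trained 3 its values were 5.13 to 5.29 in trained rats, all below the 5.35 to 5.96 of sedentary rats. That probe set lay near 5.61, the 40th percentile of all probe set means, where a signal is dim.

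The fast light chains and their kinase differed less in HCR rats. Mylpf averaged 13.7 ± 0.54 in HCR trained and 13.7 ± 0.33 in HCR sedentary rats, a difference of -0.011 (95% interval -0.60 to 0.57) that was -0.23 without HCR trained 3 and 0.13 without HCR sedentary 2. Myl1 differed by 0.085 (95% interval -0.035 to 0.20). Mylk2 read 10.34, 9.98, 11.44 and 10.09 in HCR trained rats, against 10.73, 8.67, 10.75 and 10.18 in HCR sedentary rats, and its difference of 0.38 turned to -0.09 without HCR sedentary 2 and was 0.06 without HCR trained 3.

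The slow members had negative differences, and those of Myl3 and of the brightest Myl2 probe set did not hold without HCR trained 3. Myl3 differed by -0.56 (SE 0.37, adjusted p = 0.455) and by 0.01 without that array. Myl2 differed by -0.46 (SE 0.32, adjusted p = 0.476) and by 0.029 without it at its brightest probe set, which lies near the top of the scale. Its second probe set differed by -0.85 (SE 0.45, adjusted p = 0.340) and stayed negative without the array, at -0.27 (SE 0.27, adjusted p = 0.602). Actn2 differed by -0.27 (SE 0.14, adjusted p = 0.308) and by -0.07 without it. Mybpc1 differed by -0.040 (SE 0.06, adjusted p = 0.772), by -0.036 without HCR trained 3 and by -0.097 without HCR sedentary 2.

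No member passed in HCR rats (0 of 12 probe sets, against 0.187% of all probe sets), and 2 of 12, those of Actn3 and Mybpc2, had an unadjusted p under 0.05, where 17.7% of all probe sets did. Groups did not overlap in 1 of 12 with trained rats higher (Actn3) and in 0 with trained rats lower, where 4.94% and 2.67% of all probe sets did, 7.61% in either direction, so the count of members is near the background. Without HCR trained 3 it was 2 of 12, Actn3 with trained rats higher and the second Mybpc2 probe set with trained rats lower, where 16.6% of all probe sets did. The median difference was 0.38 over 5 fast members (Myl1, Mylpf, Mybpc2, Actn3 and Mylk2), -0.46 over 3 slow members (Myl2, Myl3 and Mybpc1) and 0.00436 over all probe sets. The fast median is the value of Mylk2, which turned to -0.09 without HCR sedentary 2. Without HCR trained 3 the medians were 0.065, 0.012 and -0.0049, so those of both member classes rested on that array. The beta-actin control index, the 3′ minus the middle control probe set, averaged 1.90 ± 0.35 in HCR trained and 1.18 ± 0.54 in HCR sedentary rats. With it as a covariate Actn3 differed by 5.57 (adjusted p = 0.316).

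**Figure D2:**
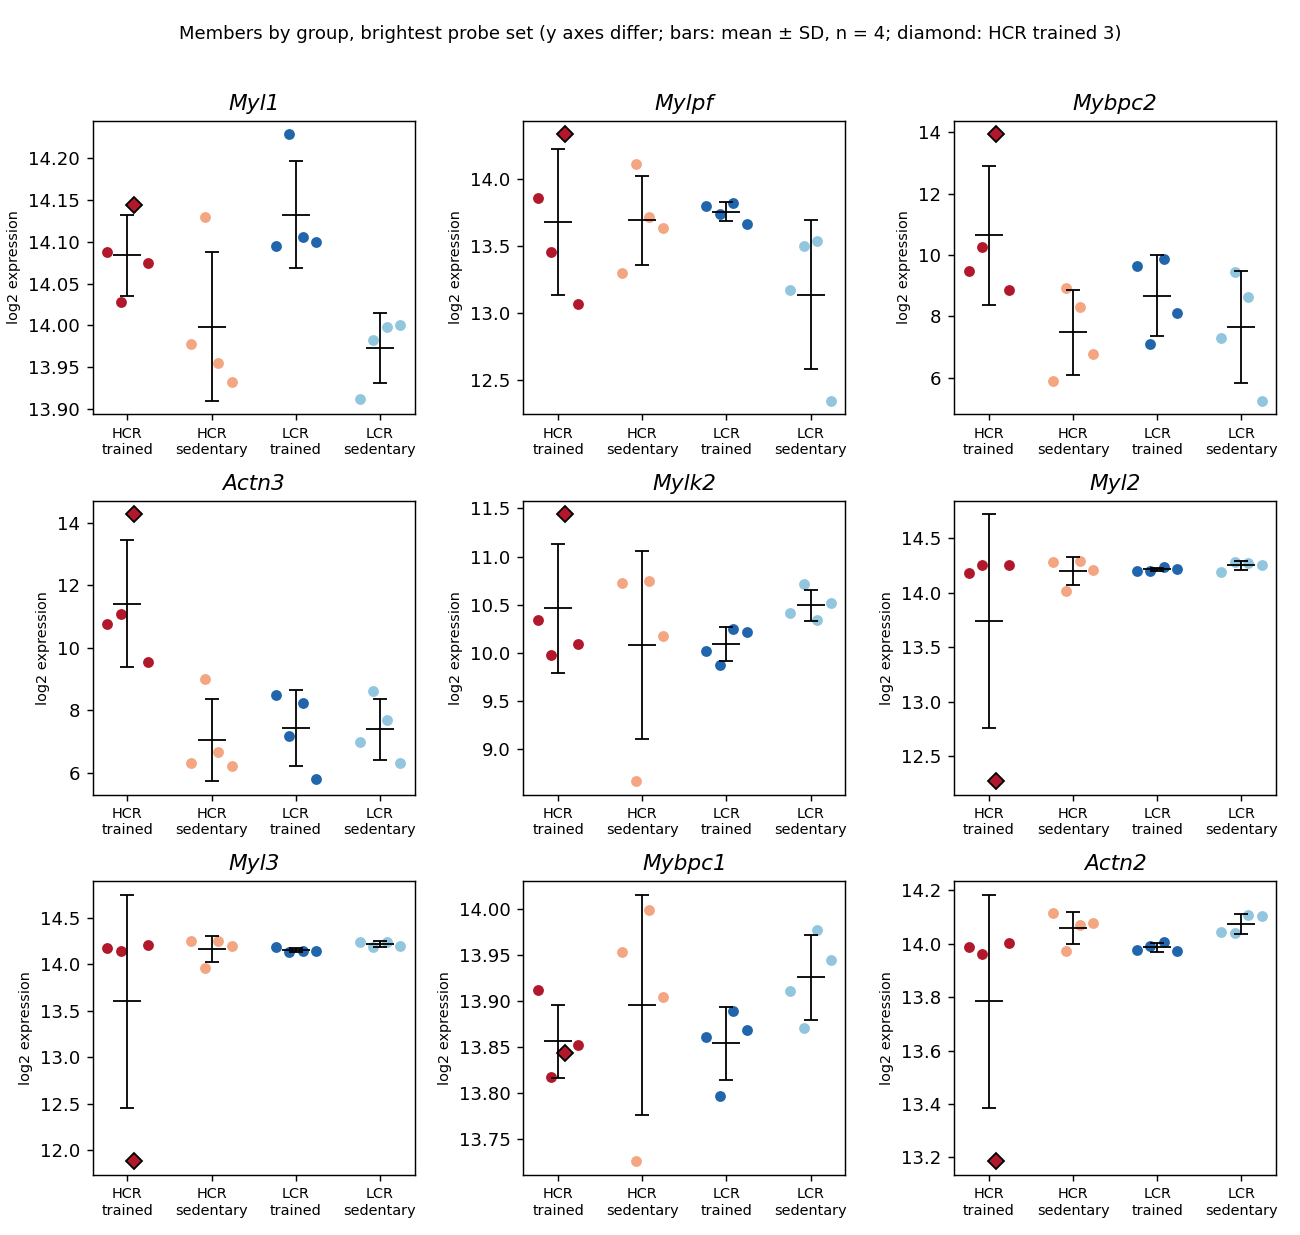
Each panel is a gene at its brightest probe set, with log2 expression on the y axis and the 4 groups on the x axis. Points are rats, bars are the mean ± SD of 4 rats, the diamond is HCR trained 3, and y ranges differ between panels. Actn3 in HCR trained rats, 9.53 to 14.27, lies above all other groups. Myl2 and Myl3, near the top of the scale at these probe sets, are narrow in every group but for the diamond.

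Training in the LCR line came with small differences in both light chain classes, none of which passed. Mylpf read 13.80, 13.74, 13.82 and 13.66 in LCR trained rats, against 13.17, 13.50, 13.54 and 12.34 in LCR sedentary rats. All 4 trained values were above all 4 sedentary ones, and LCR sedentary 4 was the lowest of the 16 arrays. The difference was 0.62 (SE 0.27, adjusted p = 0.491), and 0.35 without LCR sedentary 4. Myl1 read 14.10, 14.23, 14.11 and 14.10 in LCR trained rats, against 13.91, 13.98, 14.00 and 14.00 in LCR sedentary rats. These groups did not overlap either, at a difference of 0.16 (SE 0.06, adjusted p = 0.391).

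The slow essential chain lay on the other side. Myl3 read 14.18, 14.13, 14.15 and 14.14 in LCR trained rats, against 14.25, 14.19, 14.24 and 14.20 in LCR sedentary rats, with no overlap and a difference of -0.07. The second Myl2 probe set read 8.78 to 9.61 in LCR trained and 9.75 to 10.11 in LCR sedentary rats, a difference of -0.67 (SE 0.45, adjusted p = 0.637), while the brightest one, near the top of the scale, differed by -0.04 and overlapped. Actn2 read 13.97, 13.99, 14.01 and 13.97 in LCR trained rats, against 14.04, 14.04, 14.11 and 14.10 in LCR sedentary rats, again without overlap, at -0.09. Mybpc1 differed by -0.07 (SE 0.06, adjusted p = 0.708) and its groups overlapped.

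Mylk2, the kinase, was on the side of the slow members in LCR rats. It read 10.02, 9.87, 10.25 and 10.21 in LCR trained rats, against 10.42, 10.71, 10.34 and 10.51 in LCR sedentary rats, with no overlap at either of its probe sets and a difference of -0.41 (SE 0.39, adjusted p = 0.751). That SE draws on the spread in every group, and from the 8 LCR arrays by themselves it was 0.11 (adjusted p = 0.156). Over all arrays but HCR trained 3, Pearson's r of Mylk2 was 0.85 to 0.90 with the slow members and -0.58 to -0.27 with the other fast members. In those arrays Mylk2, Myl2, Myl3 and Mybpc1 were all lowest on HCR sedentary 2, at 8.67, 14.02, 13.96 and 13.73. The r values without that array were not computed, so its part in them was not tested.

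Actn3 and Mybpc2 had overlapping groups in LCR rats. Actn3 read 8.48, 7.19, 8.23 and 5.80 in LCR trained rats, against 6.98, 8.60, 7.68 and 6.32 in LCR sedentary rats, a difference of 0.03 (95% interval -1.93 to 2.00). Mybpc2 read 9.64, 7.10, 9.89 and 8.10 in LCR trained rats, against 7.31, 9.44, 8.62 and 5.24 in LCR sedentary rats, a difference of 1.02 (95% interval -1.36 to 3.41), and of 0.22 without LCR sedentary 4.

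In LCR rats 0 of 12 member probe sets passed, against 0.00322% of all probe sets, and 2 of 12, Myl1 and Mylpf, had an unadjusted p under 0.05, where 9.76% of all probe sets did. Groups did not overlap in 2 of 12 probe sets with trained rats higher, where 2.9% of all probe sets did, and in 5 of 12 with trained rats lower, where 5.61% did, 8.5% in either direction. These 7 probe sets come from 6 genes of a shared apparatus measured on the same 8 rats and are not independent. The median difference was 0.16 over fast members, -0.07 over slow members and -0.02 over all probe sets. The beta-actin control index averaged 1.27 ± 0.14 in LCR trained and 1.65 ± 0.32 in LCR sedentary rats. With it as a covariate the differences of Mylpf and Mylk2 were 0.44 and -0.15, and those of Myl2 and Myl3 turned to 0.10 and 0.09.

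**Figure D3:**
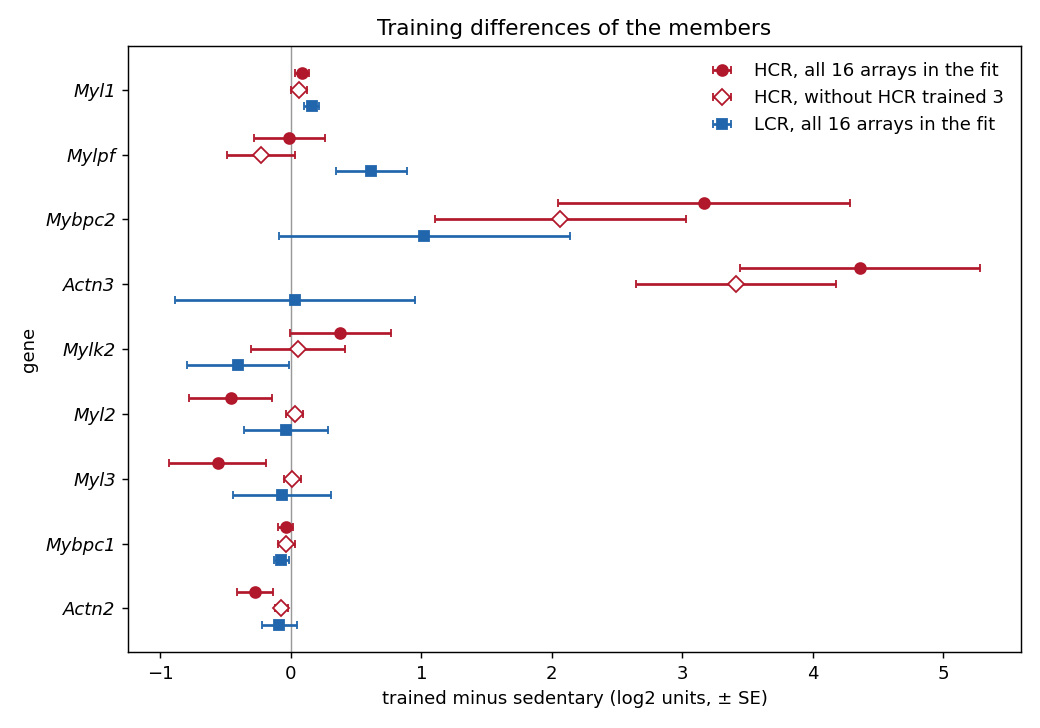
The x axis gives trained minus sedentary in log2 units with the SE from limma, for each gene on the y axis at its brightest probe set. Actn3 lies at 4.36 in HCR with all arrays and at 3.41 without HCR trained 3, and at 0.03 in LCR, and the HCR values of Myl2 and Myl3 move to 0.03 and 0.01 without that array.

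Whether the training differences themselves differ between the lines was tested as an interaction. Actn3 had the largest value among the members, 4.33 log2 units more in HCR than in LCR (SE 1.30, 95% interval 1.55 to 7.11), and did not pass (adjusted p = 0.133). Without HCR trained 3 it was 3.38 (adjusted p = 0.111). Mylpf had a negative value, -0.63 (SE 0.39, adjusted p = 0.400), which was -0.85 without HCR trained 3 and -0.36 without LCR sedentary 4. In limma 0 of 12 probe sets passed, against 0% of all probe sets, and 1 of 12 had an unadjusted p under 0.05, where 18.3% of all probe sets did.

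Averaged over the lines, Myl1 was higher in trained rats by 0.12 (SE 0.04, adjusted p = 0.316), Actn3 by 2.20 (SE 0.65, adjusted p = 0.259) and Mybpc2 by 2.09 (SE 0.79, adjusted p = 0.411). These were 0.11, 1.72 and 1.54 without HCR trained 3. The second Myl2 probe set differed by -0.76 (SE 0.32, adjusted p = 0.460), and by -0.47 without HCR trained 3 (adjusted p = 0.307). Of 12 probe sets 0 passed, where 0.00644% of all did, 4 had an unadjusted p under 0.05, where 9.55% of all did, and in 0 were all 8 trained arrays apart from all 8 sedentary ones, where 0.0838% of all were.

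Between trained rats of the lines, Actn3 again stood out among the members. Its HCR trained values of 9.53 to 14.27 all lay above the LCR trained values of 5.80 to 8.48, and this holds without HCR trained 3. The means were 11.4 ± 2.02 in HCR and 7.43 ± 1.22 in LCR trained rats, a difference of 3.99 (SE 0.92, adjusted p = 0.0606). It was 3.04 without HCR trained 3 (adjusted p = 0.0640), and passed without both HCR trained 3 and HCR sedentary 2 at the same size (adjusted p = 0.0281). Without HCR sedentary 2 alone, an array of neither group compared, it stayed at 3.99 and passed (SE 0.84, adjusted p = 0.0374). The SE draws on the spread in every group, so that call turned on an array outside the comparison. The comparison shares the HCR trained arrays with the training comparison above. Mybpc2 differed by 1.97 (SE 1.12, adjusted p = 0.344), and by 0.87 without HCR trained 3. The differences of Myl3, Myl2 and the second Myl2 probe set were -0.55, -0.47 and -0.54, and 0.026, 0.016 and 0.040 without that array. Of 12 probe sets 0 passed, against 0.374% of all, and 1, Actn3, had an unadjusted p under 0.05, where 19.7% of all did. Groups did not overlap in 1 of 12 with HCR trained rats higher (Actn3) and in 0 with them lower, where 7.61% and 6% of all did, 13.6% in either direction. Without HCR trained 3 it was 2 of 12, Actn3 higher and Myl1 lower in HCR trained rats, where 22.6% of all did.

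Between sedentary rats no member separated the lines. The difference with the smallest p was that of Mylpf, with 13.30, 14.12, 13.72 and 13.64 in HCR sedentary rats, against 13.17, 13.50, 13.54 and 12.34 in LCR sedentary rats, or 0.55 (95% interval -0.03 to 1.14, adjusted p = 0.607). It was 0.29 without LCR sedentary 4 (adjusted p = 0.748). Actn3 differed by -0.34 (95% interval -2.30 to 1.63), Mybpc2 by -0.18 and Mylk2 by -0.41. Without HCR sedentary 2 these were -0.99, -0.66 and 0.057, and without LCR sedentary 4 they were -0.70, -0.98 and -0.41. Of 12 probe sets 0 passed, against 0.00966% of all, and 0 had an unadjusted p under 0.05, where 8.37% of all did. In 0 did the groups not overlap, where HCR rats were higher in 2.23% and lower in 2.64% of all, 4.87% in either direction. On HCR sedentary 2 Mylk2 read 8.67, Myl2 14.02, Myl3 13.96, Mybpc1 13.73 and Actn2 13.97, each the lowest of its group. The remaining fast members went the other way there, with Actn3 at 9.02, Mybpc2 at 8.93, Mylpf at 14.12 and Myl1 at 14.13. Each of those was the highest of its group. On that array the mean of 6 fibroblast and matrix markers was 12.3 and that of 8 macrophage and leukocyte markers was 9.35, the highest of all 16 arrays in both lists, and their part in these values was not tested.

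The members were then summarised by array. Each gene was set against its own mean over the 16 arrays, and the 5 fast and the 3 slow members were averaged. The fast mean was 0.74, 0.80, 2.66 and 0.16 in HCR trained rats, against -0.92, 0.0048, -0.29 and -0.82 in HCR sedentary rats, without overlap. In LCR rats it was 0.24, -0.54, 0.29 and -0.59 in trained rats, against -0.61, 0.28, -0.13 and -1.28 in sedentary rats, with overlap. The slow mean was -1.34 on HCR trained 3 and 0.07 to 0.10 on the other HCR trained arrays, against -0.10 to 0.17 in HCR sedentary rats. It was 0.04 to 0.08 in LCR trained and 0.11 to 0.16 in LCR sedentary rats. These means describe chosen members and carry no test. Deviations were not scaled, so Actn3 and Mybpc2 (SD 2.02 and 2.27 in HCR trained rats) weigh far more than Myl1 (SD 0.048). The gap between the fast means of the HCR groups is narrow, 0.16 on HCR trained 4 against 0.0048 on HCR sedentary 2. Mylk2, counted as fast, read 8.67 on HCR sedentary 2, the lowest of its group, and so widened that gap.

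**Figure D4:**
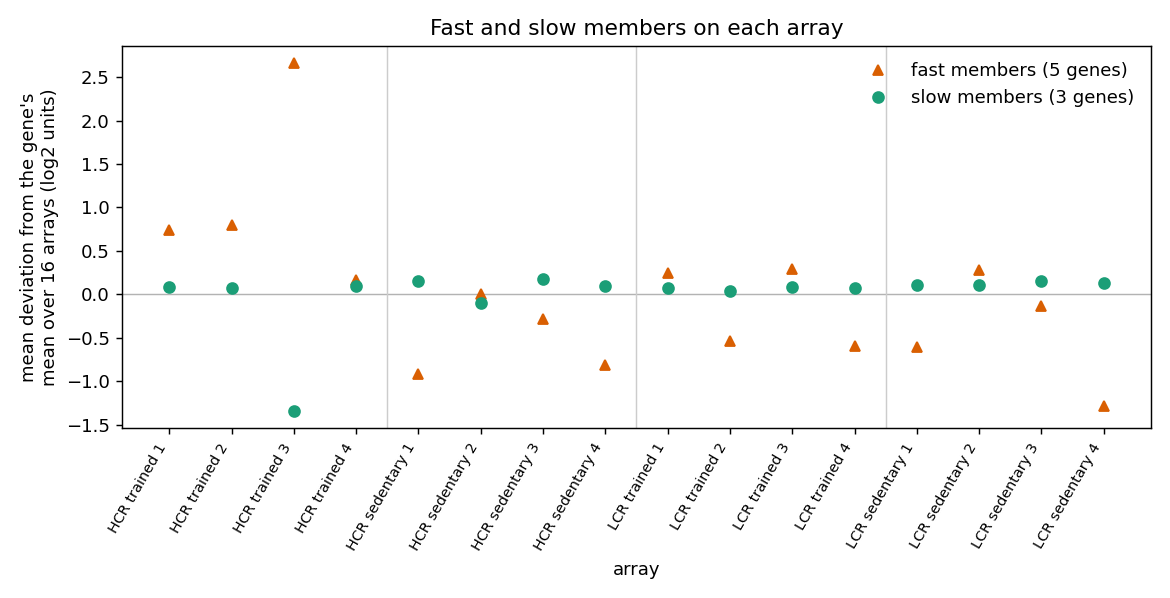
The x axis lists the 16 arrays by group, and the y axis gives the mean deviation of 5 fast members (triangles) and 3 slow members (circles) from each gene's mean over all arrays in log2 units. HCR trained 3 has the highest fast mean, 2.66, and the lowest slow mean, -1.34. On the other arrays the slow mean, from probe sets near the top of the scale, stays between -0.10 and 0.17.

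Other contraction genes were counted by list, each at its brightest probe set. Of 12 fast partners such as heavy chains, fast troponins and the calcium buffer Pvalb, all measured, 1 passed as higher and 0 as lower in HCR trained against HCR sedentary rats, where 0.187% of all probe sets passed, and likewise in HCR trained against LCR trained rats, where 0.374% did. That gene was Myh4, the type IIB heavy chain, with differences of 5.09 (SE 0.87, adjusted p = 0.0475) and 5.48 (SE 0.87, adjusted p = 0.0281). They were 4.15 (adjusted p = 0.0424) and 4.55 (adjusted p = 0.0188) without HCR trained 3. Over 16 single arrays left out, Myh4 kept the first call in 5, without HCR trained 2 or 3, HCR sedentary 2 or 4 or LCR sedentary 2, and the adjusted p reached 0.105. It kept the second call in 11 and lost it without HCR trained 4 or any 1 LCR trained array. Pvalb differed by 4.11 (adjusted p = 0.0660) and 4.38 (adjusted p = 0.0547) in the same comparisons, and passed in both without HCR trained 3, at 2.81 (adjusted p = 0.0258) and 3.08 (adjusted p = 0.0127). Over the 16 single arrays left out, Pvalb passed in 1 in the first comparison and in 5 in the second. Its adjusted p reached 0.155 and 0.151. Over all 16 arrays Myh4 averaged 6.69 and Pvalb 6.73, against 5.61 for the 40th percentile of all probe set means, where a signal is dim. Their levels by group are not given here, so how much of these differences starts from a dim signal was not examined. Of 10 slow partners measured among 12, 14 fibre-neutral sarcomere genes among 16, and 12 other light chains, kinases, binding proteins and actinins among 14, 0 passed in any comparison with all arrays. Without both HCR trained 3 and HCR sedentary 2, Pln and Ttn passed as higher between trained rats, and Cap2 as lower in averaged training. Mybph, a myosin binding protein H gene from the last list, differed by 2.20 in LCR trained against LCR sedentary rats (SE 0.74, adjusted p = 0.370). In HCR trained against HCR sedentary rats the median difference was 0.17 over fast partners and -0.64 over slow partners (0.11 and 0.020 without HCR trained 3), and in LCR trained against LCR sedentary rats it was 0.17 and -0.02.

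The genes whose pattern over the 16 arrays was most like that of Mylpf, by Pearson's r as a description, were Tnnc2 (0.96), Tnnt3 (0.96), Tpm1 (0.96), Tnni2 (0.95) and Dpp7 (0.82). Tnnc2, Tnnt3 and Tnni2 encode the fast troponin subunits, and over the 15 arrays without HCR trained 3 their r was 0.95, 0.95 and 0.94. Most like Myl3 were Tnni1, Xpo4, Atp2a2, Myoz2 and Tpm3, at 0.994 to 0.996. Tnni1 encodes slow troponin I and Atp2a2 the slow calcium pump. Those values rest on HCR trained 3, and without it they were 0.53 to 0.84. The 5 genes then most like Myl3 were Pxmp2, Ogdh, Hadha, Phyh and Tmem38a, at 0.92 to 0.93. In those 15 arrays Myl3 was lowest on HCR sedentary 2, at 13.96, where the rest read 14.13 to 14.25. The r values without that array were not computed, so this list may rest on it in turn. The arrays share animals and processing across all genes.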

How the data were processed

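The deposited values are per-probe-set log2 expression from Affymetrix rat arrays. Per the submitters' processing notes the authors used RMA and limma, but no version is given there. RMA corrects background, applies quantile normalization and summarises probes, so a difference is read relative to the other probe sets of an array. Of 31099 probe sets, 57 controls were left out. Names came from the platform annotation, with 20826 probe sets carrying 1 symbol, 436 several and 9780 none. Group means of all 16 arrays were modelled in limma 3.58.1 under R 4.3.3 (12 residual degrees of freedom before moderation, Benjamini-Hochberg within a comparison over all probe sets, threshold 0.05). The fit was tested on simulated data. A gene is shown by its brightest probe set over all arrays, and other probe sets are given beside it. The members and lists were chosen with earlier results of these data known. All 10 genes were to be named, and for Mylpf and Myl3 the 5 most similar genes among probe sets with 1 symbol at or above the 40th percentile. The labels describe separate rats, and 4 arrays per group limit the precision. Pairs of arrays correlated between 0.941 and 0.996, and no 2 were identical. Scan dates were not used here. Alternatives were other normalizations, filters, moderation, weights, covariates and left-out arrays. Fits without single arrays for second probe sets, medians and partner genes were added after seeing the data.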

Additional observations from a re-analysis of the deposited data

Results flagged for a closer look

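In groups of 4 arrays a value was singled out where its gap to the nearest of the others was too large a share of the range of the group by Dixon's test at its 95% level. This held in 7 of 48 groups, where the level of the test by itself gives about 1 in 20. The groups are 12 probe sets on the same 16 arrays and are not independent. The share over all probe sets was not computed, so the count is not read as an excess in these genes. On HCR trained 3 the rule held for the second Mybpc2 probe set at 10.08, for Myl2 at 12.27, for Myl3 at 11.88 and for Actn2 at 13.18. On HCR sedentary 2 it held for Actn3, at 9.02 against 6.22 to 6.68 on the other 3 arrays of the group. On LCR trained 2 it held for Myl1, at 14.23 against 14.10 to 14.11, and on LCR sedentary 3 for the second Mybpc2 probe set, at 5.71 against 5.24 to 5.28.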

How the results depend on the processing

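The count of member probe sets that passed, 0 in each of 6 comparisons, became 1 (Actn3) in HCR training after median centring, with array weights, and without both HCR trained 3 and HCR sedentary 2. It also became 1 (Actn3) between trained rats with array weights and without both arrays, and 1 (Actn3) in averaged training with array weights. Leaving out any 1 array of the groups compared left it at 0. Between trained rats Actn3 also passed without HCR sedentary 2 alone, an array of neither group (limma adjusted p = 0.0374). That fit is not among the pairs counted next. Over the 1080 pairs of a member comparison and an alternative, 78 had another sign and 6 passed.

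Over all 31042 probe sets the number that passed moved more, across alternatives, than that of the members: 0 to 1304 against 58 in HCR training, 0 to 321 against 1 in LCR training, 5 to 3525 against 116 between trained rats, 1 to 10 against 3 between sedentary rats, 0 to 233 against 0 in the interaction and 1 to 1148 against 2 in averaged training, the highest count coming with array weights except between sedentary rats, where it came without HCR trained 3 and HCR sedentary 2.

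None of the values whose sign turned passed the threshold, and the cause was not tested. After quantile normalization these were Mybpc1 0.015 in HCR training, Actn3 -0.00029 in LCR training, and Actn2 0.029 between sedentary rats. After median centring these were Mylpf 0.019 in HCR training. With array weights these were Mylk2 -0.25 in HCR training, Myl1 -0.013, Mylk2 0.021 and Mybpc1 0.0011 between sedentary rats, and Mybpc1 -0.00056 in the interaction. With the beta-actin index in the model these were Mylpf 0.33 and Mylk2 -0.11 in HCR training, Actn3 -0.61, Myl2 0.10 and Myl3 0.0904 in LCR training, Myl1 0.047, Mylpf 0.22, Mylk2 -0.054 and Mybpc1 -0.045 between trained rats, Myl1 -0.046, Myl2 0.12, Myl3 0.14, Mybpc1 0.0053 and Actn2 0.045 between sedentary rats, and Myl1 0.093 and Mybpc1 -0.0504 in the interaction. Without HCR trained 3 and HCR sedentary 2 these were Mylk2 -0.41 in HCR training, Myl2 0.016 and Myl3 0.026 between trained rats, Myl1 -0.018, Mylk2 0.057, Myl2 0.0096, Myl3 0.014, Mybpc1 0.027 and Actn2 0.012 between sedentary rats, and Mylk2 -0.0096, Myl2 0.00602, Myl3 0.011 and Mybpc1 -0.021 in the interaction. At the second probe set these were Mybpc2 0.17 between sedentary rats.

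Over single arrays left out, values that turned ranged for Mylpf -0.23 to 0.19, Mylk2 -0.0897 to 0.60, Myl2 -0.63 to 0.029 and Myl3 -0.76 to 0.012 in HCR training. They ranged for Actn3 -0.33 to 0.57 in LCR training. They ranged for Mylpf -0.29 to 0.13, Myl2 -0.65 to 0.016, Myl3 -0.75 to 0.026 and Mybpc1 -0.017 to 0.015 between trained rats. They ranged for Myl1 -0.018 to 0.048, Mybpc2 -0.98 to 0.42, Actn3 -0.99 to 0.064, Mylk2 -0.64 to 0.057, Myl2 -0.0800 to 0.0096, Myl3 -0.083 to 0.014, Mybpc1 -0.064 to 0.027 and Actn2 -0.034 to 0.012 between sedentary rats. They ranged for Myl2 -0.60 to 0.066, Myl3 -0.69 to 0.079, Mybpc1 -0.025 to 0.067 and Actn2 -0.26 to 0.013 in the interaction. They ranged for Mylk2 -0.25 to 0.099 in averaged training.

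With the replicate block the count was 0 in each comparison, and Actn3 in HCR training differed by 4.36 (adjusted p = 0.0983), so it changed no call. Deviations of same-numbered arrays correlated between -0.48 and 0.33 and 7 of 16 arrays correlated best with their own number, so the numbers were not taken to pair rats. Signals near the top of the scale limit the differences of 6 members, and dim signals that of the second Mybpc2 probe set.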
